A study of Mus musculus with 2 samples.

Results

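The Hox-cluster microRNAs (miRNAs) studied here are Mir10a, Mir10b, Mir196a-1, Mir196a-2, Mir196b and Mir615, miRNA genes that lie inside the Hox gene clusters. They were chosen by gene symbol, and all 6 were found among the 2202 miRNA genes measured. Small RNA under 30 nucleotides, per the labels, was sequenced from the adrenal gland of female B6CASTF1/J mice aged 18 to 20 months, the F1 offspring of a cross between C57BL/6J and CAST/EiJ. There was 1 group of 2 biological replicates. The samples are entered as differently numbered females but under the same donor record, so whether they are separate animals is not settled. The p-values below set the difference between these libraries against counting error only and do not measure a spread between animals. An SD with n = 2 is over these libraries. No condition was compared.

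Hox genes encode homeodomain transcription factors that set position along the head-to-tail axis of the embryo, and their order along a cluster follows their order of expression along that axis. The 6 miRNAs studied here are transcribed in the same direction as the Hox genes around them. miR-196 pairs almost fully with the mRNA of Hoxb8 and directs its cleavage, and miR-10b has been described in human cancer cells as a repressor of HOXD10. The adrenal cortex arises from trunk mesoderm and the medulla from trunk neural crest.

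The own-strand counts in miRNA genes, which are the unit of all values below, totalled 2590051 in replicate 1 and 2291030 in replicate 2. Levels are scaled to 1000000 such counts per library (CPM). All 6 members had at least 10 counts in each library, which 339 of the 2202 genes reached. The labelled tissue was checked with marker lists that hold no miRNA defining the adrenal cortex. The endocrine list, led by Mir375 and Mir7b, summed to 65782 and 56378 CPM in replicates 1 and 2 over the 2 of 4 listed genes that matched by symbol. Mir7-1, at 253 and 167 CPM, and Mir7-2, at 72.2 and 43.2 CPM, were measured under symbols that the list does not hold. They are not in this sum. The smooth muscle and fibroblast list (6 genes) summed to 31248 and 20689 CPM, most of it Mir143 at 27092 and 17511 CPM, with Mir145a at 1350 and 2765 CPM, and the endothelial list (Mir126a and Mir126b) to 64764 and 33414 CPM. The kidney list (5 genes) summed to 7832 and 6711 CPM, nearly all of it Mir30a, with Mir204 at 50.2 and 36.7 CPM. The epithelial list (7 genes, led by Mir203 and Mir200c) summed to 1192 and 1871 CPM, the leukocyte list (4 genes, led by Mir146 and Mir150) to 2074 and 2050 CPM, and Mir122 of liver to 622 and 702 CPM. The striated muscle list (8 genes, led by Mir206 and Mir499) summed to 598 and 81.2 CPM, and 4 of its genes, the copies of Mir1a and Mir133a, share 18 bases with another miRNA hairpin. Reads common to several loci are in no gene count, so the 0 counts of Mir1a-1, Mir133a-1 and Mir133a-2 in both libraries do not show that these miRNAs were absent. The same limit holds for the whole neural list, in which 6 of 6 genes share 18 bases with another. Such sharing was also found for 3 of 6 smooth muscle and fibroblast genes and 3 of 5 kidney genes, Mir30a among them. In the leukocyte list it was found for 1 of 4 genes, Mir146. The sums of these lists can therefore be too low. The neural list (6 genes) summed to 0.386 and 0.873 CPM, with 4 genes at 0 in both, Mir9-1 at 0 and 2 counts and Mir9-3 at 1 and 0. In bulk tissue, fewer cells of a type and less RNA per cell cannot be told apart.

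The members are spread over all 4 Hox clusters (mm10, GENCODE M21), each on the strand of its neighbouring Hox genes. Mir10a (ENSMUSG00000065519.1; chromosome 11, 96317165 to 96317274, plus strand) lies in HoxB, 1495 bases before the coding sequence of Hoxb4, and overlaps no annotated gene. Mir10b (ENSMUSG00000065500.3; chromosome 2, 74726070 to 74726137, plus strand) holds the same place in HoxD, 1141 bases before the coding sequence of Hoxd4, in an intron of longer Hoxd3 and Hoxd4 transcripts. Mir615 (ENSMUSG00000076010.1; chromosome 15, 103014910 to 103015001, plus strand) lies in an intron of Hoxc5.

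The miR-196 genes all lie upstream of a group 9 Hox gene. Mir196a-1 (ENSMUSG00000065546.1; chromosome 11, 96265164 to 96265265, plus strand) is in HoxB, 6276 bases before the coding sequence of Hoxb9, outside any annotated gene. Mir196a-2 (ENSMUSG00000065488.2; chromosome 15, 102973350 to 102973434, plus strand) lies between Hoxc10 and Hoxc9, in an intron of a long transcript assigned to Hoxc5. Mir196b (ENSMUSG00000065443.1; chromosome 6, 52230081 to 52230165, minus strand) lies between Hoxa10 and Hoxa9 and overlaps an exon of a Hoxa9 transcript. The annotation holds 1 further miRNA gene inside a Hox cluster, Gm44463 in HoxD, on the minus strand and so opposite to Mir10b. It had no counts in either library, which allows up to 1.16 CPM in replicate 1 and 1.31 CPM in replicate 2.

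**Figure D1:**
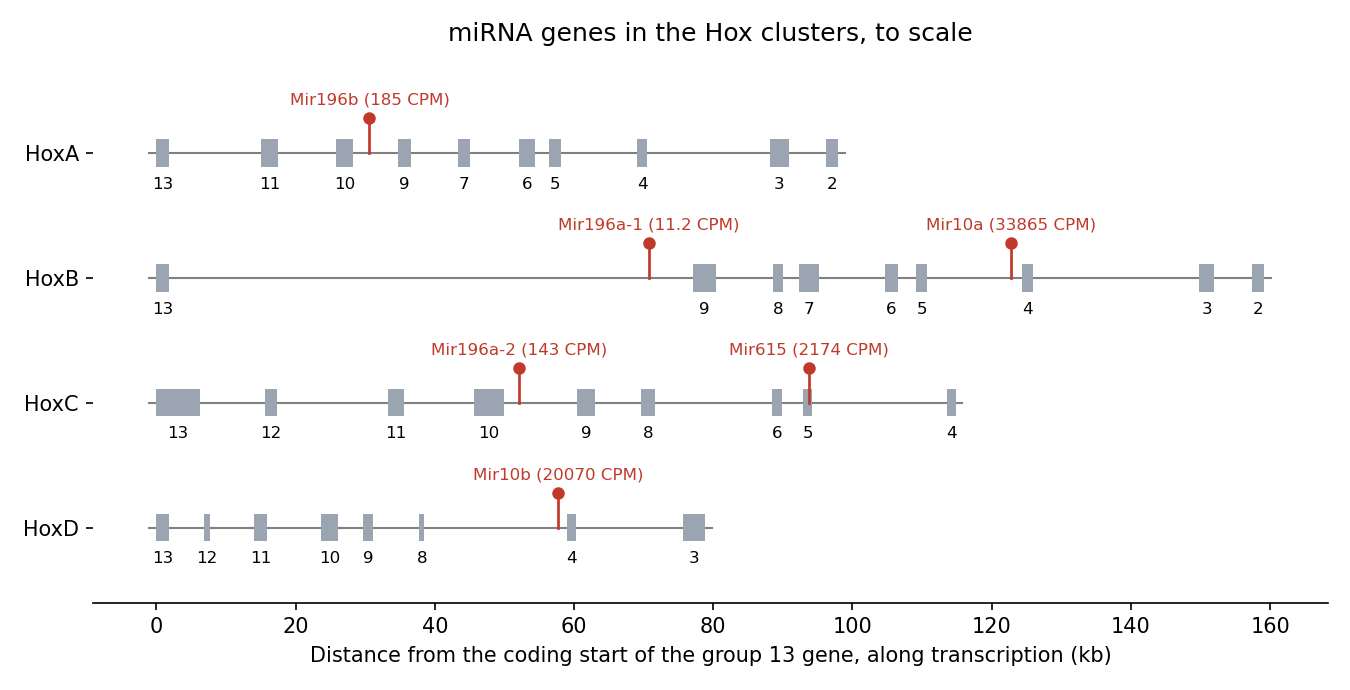
Map of the 4 Hox clusters, with distance in kb from the coding start of the group 13 Hox gene along the direction of transcription. Grey boxes are the coding spans of Hox genes with their group number below (group 1 is not drawn), and red pins are the miRNA genes with their mean CPM (n = 2); Mir10a and Mir10b stand just before the group 4 genes, and the miR-196 genes before the group 9 genes.

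Mature sequences (RefSeq, GRCm38.p6) were found for 6 of 6 members. They are shown because the miR-10 pair and the miR-196 genes each share a seed, and because the counts turn on which reads are unique to a locus. Capitals mark the seed, bases 2 to 8 from the 5′ end, and for miR-615, whose arms are not resolved in the counts, both arms are given.
miR-10a-5p: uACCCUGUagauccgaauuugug
miR-10b-5p: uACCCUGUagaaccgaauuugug
miR-196a-5p: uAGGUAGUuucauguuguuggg
miR-196b-5p: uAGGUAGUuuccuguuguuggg
miR-615-5p: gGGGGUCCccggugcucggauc
miR-615-3p: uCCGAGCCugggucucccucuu

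miR-10a-5p and miR-10b-5p differ by 1 substitution in 23 bases, U12A, counted from the 5′ end and written from miR-10a to miR-10b. miR-196a-5p and miR-196b-5p also differ at the same position and nowhere else in 22 bases (A12C, from miR-196a to miR-196b). Both substitutions lie outside the seed. Within the RefSeq mature set the miR-10 seed belongs to these 2 miRNAs alone, and the miR-196 seed likewise. miR-196a-5p is encoded at both Mir196a-1 and Mir196a-2, whose hairpins share a run of 22 bases, while the longest run that Mir10a shares with any other miRNA hairpin is 15 bases, with Mir10b, and that of Mir196b is 12 bases.

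The other arms of the miR-196a hairpins differ between the loci, and reads of these arms can be assigned to 1 locus.
miR-196a-1-3p: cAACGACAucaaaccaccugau
miR-196a-2-3p: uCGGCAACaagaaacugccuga

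Reads with more than 1 place of alignment were counted in no gene. They numbered 2357429 in replicate 1 and 1958627 in replicate 2, which is 0.910 and 0.855 for each counted read. How many of them are miR-196a-5p is not known, so the levels of Mir196a-1 and Mir196a-2 are those of uniquely placed reads and can be below those of the mature miRNA. The hairpins of Mir10a, Mir10b, Mir196b and Mir615 share no run of 18 bases with another miRNA hairpin.

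The target site for which miR-196 is known shows where the A12C difference falls. In the longest annotated 3′ UTR of Hoxb8 the best ungapped match to miR-196a-5p among all 39 Hox genes lies at chr11:96284888-96284909 (plus strand, mm10), with capitals for bases that pair by Watson-Crick rules.
Hoxb8 site: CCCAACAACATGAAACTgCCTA

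Of its 22 bases, 21 pair with miR-196a-5p, the exception being position 5 of the miRNA, and 20 pair with miR-196b-5p, the exceptions being positions 5 and 12. The next best Hox 3′ UTR, that of Hoxd8, pairs at 15 positions with miR-196a-5p. The highest number found for miR-10a-5p in any Hox 3′ UTR was 14 of 23 positions, and for miR-10b-5p it was 15. The search scored pairing over the whole miRNA and did not look for seed sites. It therefore cannot show whether miR-10 has sites in Hox mRNAs. No mRNA was measured here, so these matches are a description of sequence.

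Levels among the members ranged from 33865 CPM for Mir10a to 11.2 CPM for Mir196a-1 as means over the libraries, with the miR-10 pair above the rest. Mir10a had 80336 counts in replicate 1 and 84112 in replicate 2, or 31017 and 36714 CPM. It ranked 10 and 8 among all miRNA genes in these libraries. Ranks here and below cover uniquely placed reads, so a gene whose reads align to several places can rank too low. Mir10b had 43081 and 53854 counts, or 16633 and 23507 CPM, and ranked 16 and 12. Both libraries had more Mir10a than Mir10b, and the values of the genes did not overlap.

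Mir615 had 4628 and 5866 counts, or 1787 and 2560 CPM, and ranked 58 and 50. Its level was below that of Mir10b in both libraries, by a count ratio of Mir10b to Mir615 of 9.31 (95% interval 9.03 to 9.60, exact binomial) in replicate 1 and 9.18 (8.94 to 9.43) in replicate 2. Both intervals overlap, so a difference of this ratio between libraries was not detectable, while each gene alone was higher in replicate 2. All mature forms are 22 or 23 bases long, so the order of these levels would hardly change per base of mature sequence.

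In uniquely placed reads, the miR-196 genes were the lowest members. Mir196b had 626 and 295 counts, or 242 and 129 CPM, and ranked 142 and 169. Mir196a-2 had 370 and 329 counts, or 143 and 144 CPM, and ranked 172 and 162. Mir196b was the higher of these in replicate 1 and the lower in replicate 2, so their levels overlapped and their order is not settled by these libraries. The counts of Mir196a-2 also leave out miR-196a-5p reads that align to both its loci, whereas the miR-196b-5p sequence belongs to Mir196b alone. The comparison of these genes therefore holds for uniquely placed reads only. The ratio of Mir196b to Mir196a-2 was 1.69 (95% interval 1.49 to 1.93) in replicate 1 and 0.897 (0.764 to 1.05) in replicate 2.

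Mir196a-1 had 31 and 24 counts, or 11.97 CPM (Wilson 95% interval 8.43 to 17.0) and 10.5 CPM (7.04 to 15.6). It was below every other member in both libraries and ranked 303 and 309. Its counts lay under those of Mir196a-2, with which it shares its 5p mature sequence, by a ratio of 11.9 (95% interval 8.26 to 17.8) in replicate 1 and 13.7 (9.05 to 21.7) in replicate 2. The intervals overlap, and at this depth a difference of the ratio between libraries was not detectable. This ratio leaves out miR-196a-5p reads that align to both loci.

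**Figure D2:**
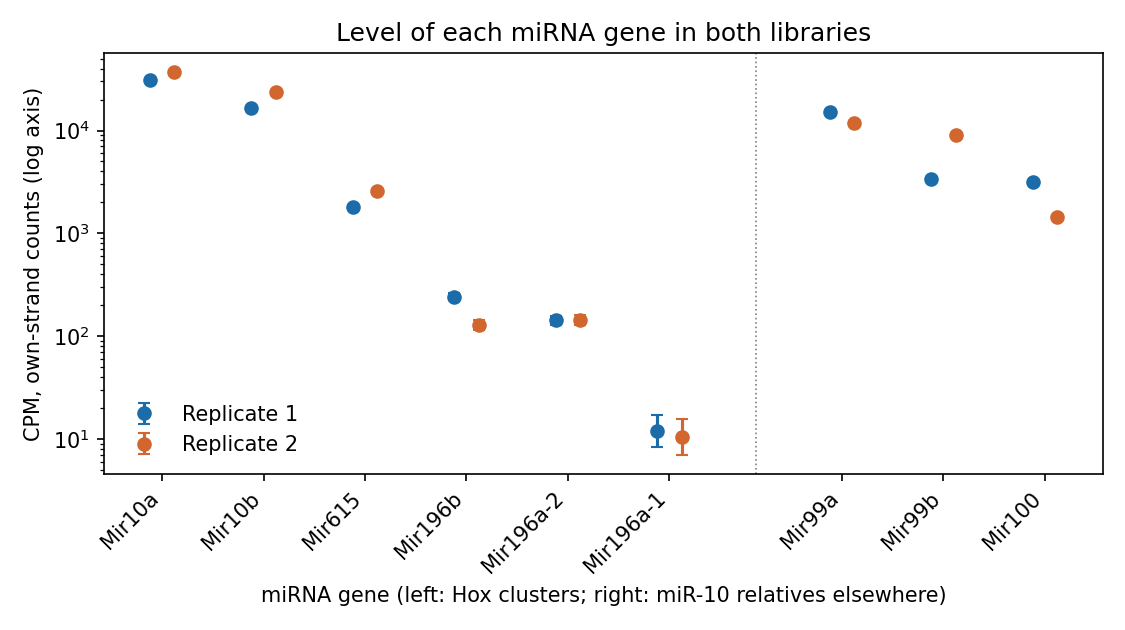
Level of each gene in CPM on a log axis, 1 point per library with its Wilson 95% interval, for the 6 Hox-cluster miRNAs in order of mean level and for the 3 miR-10 relatives outside the clusters. Mir10a and Mir10b stand above all other genes shown in both libraries, and Mir196a-1, at 11.97 and 10.5 CPM, stands lowest.

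As a mean over the libraries, the members together held 5.64% ± 0.935 of counts (SD, n = 2), with 4.98% (Wilson 95% interval 4.96 to 5.01) in replicate 1 and 6.31% (6.27 to 6.34) in replicate 2. Within this sum Mir10a and Mir10b supplied 95.6% and 95.5%, and the miR-196 genes 0.796% and 0.449%. By cluster, HoxB held 31029 and 36724 CPM, HoxD 16633 and 23507, HoxC 1930 and 2704, and HoxA 242 and 129 CPM. HoxA, whose sum is that of Mir196b alone, was the only cluster whose summed level was lower in replicate 2. The HoxB sum was nearly all Mir10a. All these shares are of counts that leave out reads aligned to several places.

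In the order of mean level over all genes, Mir10a at 33865 ± 4028 CPM (SD, n = 2) stood between Mir23a at 37161 and Mirlet7i at 32575 CPM. Mir10b at 20070 ± 4860 CPM stood between Mir26b at 20810 and Mir744 at 16145, and Mir615 at 2174 ± 547 CPM between Mir130a at 2190 and Mir351 at 2173. Mir196b at 185 ± 79.9 CPM stood between Mir30c-1 at 187 and Mir206 at 182, Mir196a-2 at 143 ± 0.530 CPM between Mir223 at 144 and Mir381 at 141, and Mir196a-1 at 11.2 ± 1.06 CPM between Mir6538 at 11.3 and Mir106a at 10.9. These neighbours are alike in mean level over 2 libraries only. Mir206, for example, had 285 and 79.4 CPM.

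**Figure D3:**
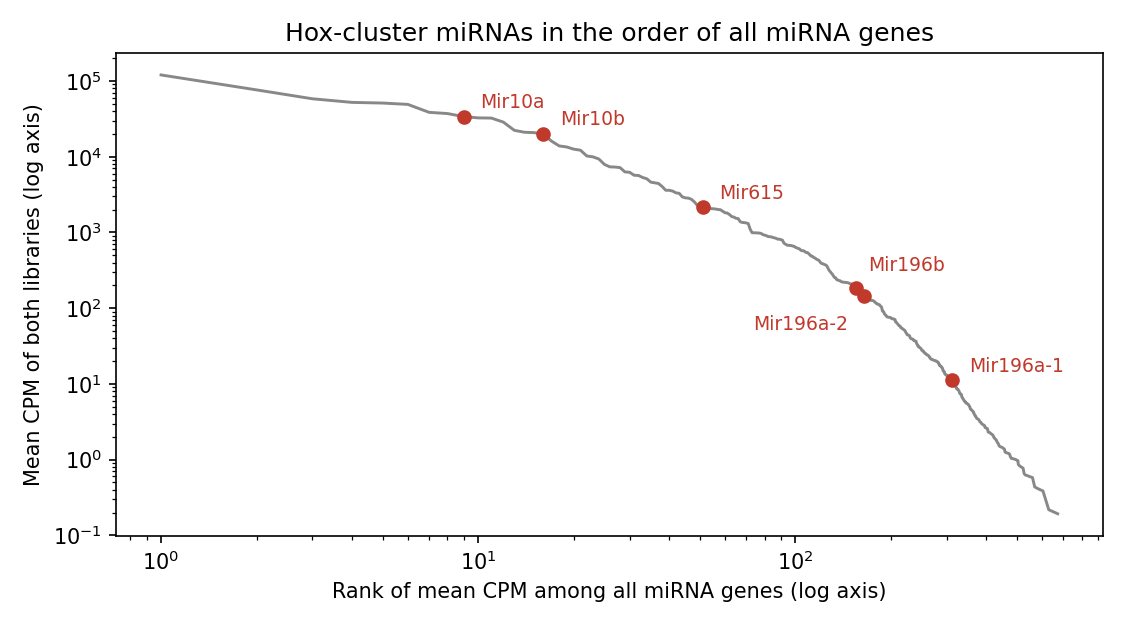
Mean CPM of both libraries against rank among all miRNA genes, both on log axes, with the 6 Hox-cluster miRNAs in red. Mir10a is at rank 9, Mir10b at 16, Mir615 at 51, Mir196b at 155, Mir196a-2 at 165 and Mir196a-1 at 312.

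Between the libraries, Mir10a, Mir10b and Mir615 were higher in replicate 2 and Mir196b was higher in replicate 1, while Mir196a-1 and Mir196a-2 did not pass the test. Counts were compared by a two-sided exact binomial test with library sizes scaled by TMM, and p was adjusted by Benjamini-Hochberg over the 367 genes with a summed count of at least 20. Of these genes 230 passed at 0.05, which is 62.7%, made up of 30.2% higher in replicate 2 and 32.4% in replicate 1. The 4 of 6 members that passed are close to that share. The median log2 ratio of replicate 2 over replicate 1 was 0.16 over the members and 0.02 over all tested genes.

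Mir10a had a log2 ratio of 0.28 (95% interval 0.27 to 0.29), which is 1.21-fold. Mir10b had a log2 ratio of 0.54 (0.52 to 0.55), which is 1.45-fold. For both, the p of the exact test was too small for the calculation to hold as a number other than 0. Mir615 had a log2 ratio of 0.56 (0.50 to 0.61; adjusted p = 1.82e-85, exact binomial test), which is 1.47-fold and close to that of Mir10b. Among all tested genes, 31.3% had a smaller absolute log2 ratio than Mir10a, 55.0% than Mir10b and 56.4% than Mir615, so Mir10b and Mir615 lay near the middle of all tested genes and Mir10a below it.

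Mir196b had the largest ratio among the members, -0.87 on the log2 scale (-1.08 to -0.67; adjusted p = 5.65e-18, exact binomial test), which is 1.83-fold higher in replicate 1. A smaller absolute ratio was found for 74.7% of tested genes. Mir196a-2 had a log2 ratio of 0.05 (-0.17 to 0.26; adjusted p = 0.778, exact binomial test). Mir196a-1 had -0.15 (-0.99 to 0.66; adjusted p = 0.847, exact binomial test), and its wide interval, from 31 and 24 counts, leaves differences inside it undetectable at this depth. Of the marker sums given above, those of the endocrine, kidney, smooth muscle and fibroblast, endothelial and striated muscle lists were higher in replicate 1. Mir196b was also higher in replicate 1. The leukocyte sum was nearly level, at 2074 and 2050 CPM. Of its 4 tested genes, 1 passed as higher in replicate 2 and 0 as higher in replicate 1. The epithelial and liver sums were higher in replicate 2, as Mir10a, Mir10b and Mir615 were. The neural sum held too few counts to be compared, and 0 of its genes were tested. Members of a list did not all move with its sum, since in the smooth muscle and fibroblast list 4 of 5 tested genes passed as higher in replicate 1 and 1, Mir145a, as higher in replicate 2. The part of these markers in the members' differences was not tested.

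**Figure D4:**
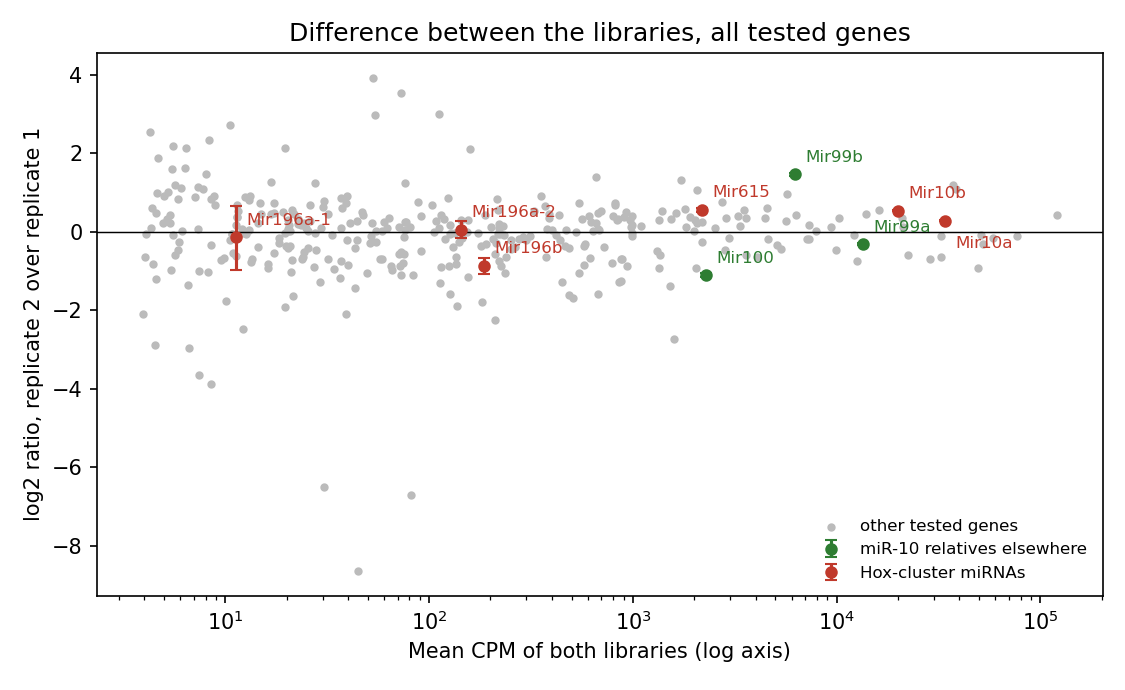
Log2 ratio of replicate 2 over replicate 1 (prior count 0.5) against mean CPM on a log axis for all tested genes in grey, the Hox-cluster miRNAs in red and the miR-10 relatives in green, with exact 95% intervals for the named genes. Mir10a, Mir10b and Mir615 lie above 0, Mir196b below it, and the intervals of Mir196a-1 and Mir196a-2 include 0.

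Ratios of genes within a library do not depend on how library sizes are scaled. There were 1.86 counts of Mir10a for each of Mir10b in replicate 1 (95% interval 1.84 to 1.89) and 1.56 in replicate 2 (1.55 to 1.58). The odds ratio of replicate 2 to replicate 1 was 0.838 (exact 95% interval 0.824 to 0.851; Fisher's exact test, two-sided p = 1.52e-105, adjusted over the 2 ratio tests 3.03e-105). Mir10b thus made up more of the miR-10 counts in replicate 2. The miR-10 pair had 120 counts for each count of the miR-196 genes in replicate 1 (113 to 128) and 213 in replicate 2 (197 to 230), an odds ratio of 1.77 (1.60 to 1.96; Fisher's exact test, two-sided p = 1.12e-30, which the adjustment left as it was). The summed level of Mir196a-1 and Mir196a-2 was 155 CPM in replicate 1 and 154 CPM in replicate 2. Both tests cover counting error only and compare these 2 libraries. The counts of the miR-196 genes leave out miR-196a-5p reads that align to both its loci. The ratio of the miR-10 pair to them can therefore be too high, by an unknown amount.

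Outside the Hox clusters, miR-10 has relatives in Mir99a, Mir99b and Mir100, whose 5p sequences match much of miR-10 but whose shared seed lacks a base of it. Mir99a is shown for comparison, with its seed in capitals.
miR-99a-5p: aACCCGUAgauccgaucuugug

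Together these 3 genes held 21652 CPM in replicate 1 and 22313 CPM in replicate 2, below the 47650 and 60220 CPM of Mir10a and Mir10b. Mir99a had 15110 and 11798 CPM, Mir99b 3383 and 9084 CPM, and Mir100 3159 and 1431 CPM. Mir99b was higher in replicate 2, with a log2 ratio of 1.46 (95% interval 1.43 to 1.50), and Mir99a and Mir100 were higher in replicate 1, at -0.32 (-0.34 to -0.30) and -1.10 (-1.16 to -1.05). All 3 passed the exact binomial test, as did 62.7% of all tested genes. The relatives differed in opposite directions between the libraries, and Mir10a and Mir10b were both higher in replicate 2. Over all tested genes, 30.2% passed as higher in replicate 2 and 32.4% as higher in replicate 1. These calls therefore do not set the relatives apart from the miR-10 pair. Mir10b exceeded Mir99a in both libraries, with a count ratio of Mir10b to Mir99a of 1.10 (95% interval 1.09 to 1.12) in replicate 1 and 1.99 (1.96 to 2.02) in replicate 2.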

How the data were processed

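The deposited tables hold raw read counts per miRNA gene, made by the authors on mm10 with GENCODE M21 per the deposited notes. Aligner, counter and adapter trimming: not given in the sources used here. Of the 3 count columns, the stranded column fixed in advance as own strand was used. The 4 rows of reads in no gene were left out of library sizes: unmapped (40.6% and 29.8% of reads in replicates 1 and 2), aligned to several places (24.0% and 28.0%), in no miRNA gene (8.94% and 9.44%) and ambiguous (2 reads and 1 read).

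Symbols and positions came from GENCODE M21 (all 2202 identifiers matched), and Hox genes were placed by the coding span of their principal transcripts. TMM factors (edgeR 4.0.16) were taken over genes with a summed count of at least 20, and were 1.01 and 0.987. DESeq2 1.42.0 gave alternative size factors. Exact tests and intervals used SciPy 1.17.1 and R 4.3.3. The exact binomial test with TMM scaling was also run on a simulated pair of libraries with counting error only. Intervals and Fisher's exact test were not checked by simulation. With a single group edgeR's quasi-likelihood test has no contrast to fit. Log2 ratios have a prior count of 0.5. PCR copies are not separate molecules, so intervals cover counting error only. A count of 0 allows up to 3 counts. Ratio intervals within a library are exact binomial ones.

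The members, the lists and the tests were chosen with earlier results of these data known. Named genes are the members, the genes next to each in mean CPM, Mir99a, Mir99b and Mir100, and the 2 highest genes of each marker list. The other genes given at 0 in a list, and Gm44463, were named after their values were seen.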

Additional observations from a re-analysis of the deposited data

Results flagged for a closer look

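The tables also count reads that were assigned to no miRNA gene, and these classes were well filled. Unmapped reads numbered 3983683 in replicate 1 and 2084143 in replicate 2. Reads that align to several places numbered 2357429 and 1958627, and reads in no miRNA gene 876402 and 659864. The opposite strand of the 6 Hox-cluster miRNAs had 0 counts in both libraries.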

How the results depend on the processing

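No paired analysis was possible because there is 1 group. The log2 ratios of Mir10a, Mir10b, Mir196b and Mir615 kept their direction and passed the exact test under all 8 alternatives, with ranges of 0.15 to 0.29, 0.40 to 0.54, -1.002 to -0.86 and 0.42 to 0.56. Mir196a-2 (-0.09 to 0.05) and Mir196a-1 (-0.28 to -0.10) did not pass under any, and with a minimum summed count of 200 Mir196a-1 was not tested. TMM factors from all genes, chosen after seeing the data, shifted the median log2 ratio of tested genes by -0.13 and put 37.9% of the calls higher in replicate 2, against 48.3%; 85 and 139 genes were then higher in replicates 2 and 1. The number of differing genes was 180 with a minimum count of 200 and 211 to 230 otherwise. Ignoring strand could not change the 2 ratio tests, because the members have 0 counts on the opposite strand. The summed share of the members, 5.64% in the main setting, was 1.69% of all reads in the tables and 6.49% with strand ignored. It was 7.04% with the library size taken without Mirlet7b and Mirlet7g, an alternative chosen after seeing the data. All of these follow from the denominator, since the members' counts stayed the same. With a library left out, the share was 4.98% to 6.31%, and 4 to 6 of the 6 members kept their place in the order of levels. The exception was replicate 2 alone, where Mir196a-2 was above Mir196b. Depth limits Mir196a-1 most.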

Other observations

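Hairpins of the miR-10 genes had a GC content of 40.0% (Mir10a) and 39.7% (Mir10b), those of the miR-196 genes 43.5% to 48.0% and that of Mir615 69.6%, against a median of 50.8% over the 2202 annotated hairpins.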
